A study of Mus musculus with 6 samples.

Results

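The Eph receptors and their ligands, the ephrins, are described here in Hepa1-6 cells labelled as Matr3 knockout or wild type. The 10 genes were taken by their gene names from the 55573 rows of the deposited table, and comprise 7 receptors (Epha1, Epha2, Epha4, Epha7, Ephb2, Ephb3 and Ephb4) and 3 ephrins (Efna1, Efnb1 and Efnb2). The other 12 receptors and ephrins of the mouse were looked up as well. RNA was measured in 3 libraries of Matr3 knockout cells, made with CRISPR/Cas9, and in 3 libraries of wild-type cells. Hepa1-6 is a mouse hepatoma line, and both groups are labelled as that line with no further treatment. Matr3 encodes matrin 3, a nuclear matrix protein that binds RNA and DNA. Whether libraries of a group are separate cultures, and whether the knockout is 1 clone, is not in the labels. The p-values therefore measure only spread between libraries, which may be technical.

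Eph receptors are receptor tyrosine kinases that bind ephrins on the surface of a neighbouring cell. Ephrin-A ligands are held in the membrane by a lipid anchor and ephrin-B ligands span it, and EphA receptors mostly bind ephrin-A while EphB receptors mostly bind ephrin-B. Contact sends a forward signal into the cell with the receptor and a reverse signal into the cell with the ephrin, through Src-family kinases and adaptor proteins, and it is known for the repulsion, adhesion and sorting of cells. In epithelial tumours Epha2 is often abundant.

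The libraries held 20736570 to 30794032 counts, and 14842 genes had enough counts to be tested. Matr3 itself was at 76.0, 86.1 and 75.3 CPM (counts scaled to library size) in knockout cells, against 129, 125 and 134 CPM in wild-type cells, so its mRNA was lower but not lost in the knockout (log2 fold change -0.71, edgeR quasi-likelihood adjusted p = 0.00270). Knockout library 2 stood apart from knockout libraries 1 and 3: across genes, its deviation from the mean of the 6 libraries correlated with GC content at -0.253, against 0.235 and 0.237 in the others and -0.143 to -0.023 across the wild type. In wild-type library 1, reads covered 23440 genes, against 20450 to 21217 in the other 5 libraries. Of 10 hepatocyte and hepatoma markers, 2 reached 1 CPM in every library (Afp and Foxa2); Ttr and Serpina1a had 0 reads in all 6, and Alb and Hnf4a were at or below 0.0431 CPM, so defining hepatocyte markers were absent or nearly so in cells labelled as a liver cancer line. That list summed to 18.6 to 26.7 CPM in the knockout and 21.7 to 25.8 CPM in the wild type. Of 5 biliary markers 3 reached 1 CPM in every library, with a summed level of 947 to 995 CPM in the knockout and 764 to 874 CPM in the wild type. Nearly all of it came from Krt19, at 625 to 664 CPM in the knockout and 269 to 296 CPM in the wild type, and Spp1, at 302 to 312 CPM in the knockout and 477 to 558 CPM in the wild type, so the pair differed in opposite directions. Of 6 endothelial markers 0 reached 1 CPM in every library, with a summed level of 1.20 to 1.66 CPM in the knockout and 3.04 to 3.97 CPM in the wild type. The gap came from Cdh5, at 0.344 to 0.606 CPM in the knockout and 1.98 to 2.69 CPM in the wild type. Pecam1 overlapped, at 0.281 to 0.861 CPM in the knockout and 0.373 to 0.875 CPM in the wild type. The 6 fibroblast markers, of which 2 reached 1 CPM in every library, summed to 17 to 25.3 CPM in the knockout and 13.9 to 16.6 CPM in the wild type. Of these, Col1a1 was at 15.2 to 24.0 CPM in the knockout and 11.2 to 12.5 CPM in the wild type, and Pdgfrb, in the other direction, at 1.08 to 1.34 CPM in the knockout and 2.24 to 3.78 CPM in the wild type. The 6 immune markers, of which 1 reached 1 CPM in every library and Cd3e and Adgre1 had 0 reads, summed to 12.4 to 16.0 CPM in the knockout and 10.8 to 11.9 CPM in the wild type. Nearly all of that sum was Cd68, at 12.4 to 15.9 CPM in the knockout and 10.6 to 11.9 CPM in the wild type. The part of these differences in the results below was not tested. In bulk RNA, fewer cells of a type and less RNA per cell cannot be told apart.

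Among the 10 genes, Epha4 and Epha2 were higher in the knockout, Ephb2 was lower, and the other 6 tested genes did not pass. Epha1 had too few reads to be tested. Of the 9 tested genes, 2 rose and 1 fell, which is 33.3%, at a Benjamini-Hochberg adjusted p under 0.05 in edgeR's quasi-likelihood test. Over all 14842 tested genes 15.2% passed (2252 genes), 7.69% higher and 7.48% lower in the knockout. That count was 861 when knockout library 1 was dropped, 832 for knockout library 3 and 4295 for knockout library 2. It was 2027 when wild-type library 1 was dropped, 931 for wild-type library 2 and 807 for wild-type library 3. The median log2 fold change, knockout over wild type, was 0.11 over the 9 genes and -0.02 over all tested genes. In 4 of the 9 (44.4%) the 3 knockout libraries lay wholly on 1 side of the 3 wild-type libraries, as in 36.6% of all tested genes. No test of these shares was made.

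**Figure D1:**
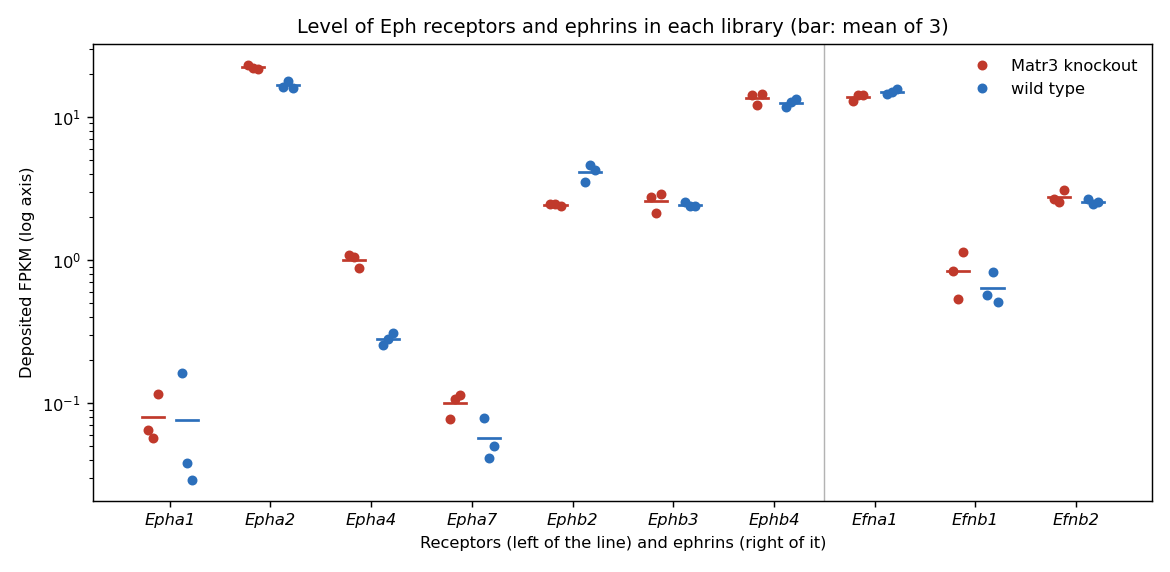
Level of each of the 10 genes in each library, as deposited FPKM (fragments scaled to gene length and library size) on a log axis, with the 3 Matr3 knockout libraries (red) left of the 3 wild-type libraries (blue) and bars at the means. Epha2, Efna1 and Ephb4 stand highest in all libraries, Epha1 and Epha7 stay at or below 0.163 FPKM, and the groups do not overlap for Epha4, Epha2, Ephb2 and Efna1.

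Per length, 3 of the 10 genes stood well above the other 7. Epha2 was at 22.3 ± 0.718 FPKM in the knockout and 16.6 ± 1.03 FPKM in the wild type (SD, n = 3 each). Efna1 was at 13.8 ± 0.716 FPKM in the knockout and 15.0 ± 0.526 FPKM in the wild type, and Ephb4 at 13.6 ± 1.27 FPKM in the knockout and 12.5 ± 0.819 FPKM in the wild type. Within the 10 genes, the order of mean levels below these in the knockout was Efnb2, Ephb3, Ephb2, Epha4, Efnb1, Epha7 and Epha1, and in the wild type it was Ephb2, Efnb2, Ephb3, Efnb1, Epha4, Epha1 and Epha7. Neighbours whose library values overlapped were Efna1 with Ephb4, Efnb2 with Ephb3, Ephb3 with Ephb2, Epha4 with Efnb1 and Epha7 with Epha1 in the knockout, and only Efnb2 with Ephb3 and Epha1 with Epha7 in the wild type. Ephb2 thus stood above the ranges of Efnb2 and Ephb3 in wild-type cells and within or below them in knockout cells.

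Epha4, a receptor that binds both ephrin-A and ephrin-B ligands, showed the largest fold change of the tested family genes. It had 203, 263 and 201 reads in knockout cells, against 45, 60 and 65 reads in wild-type cells. These are 8.74, 8.39 and 7.07 CPM in the knockout and 2.10, 2.25 and 2.47 CPM in the wild type. Every knockout library was above every wild-type library, and the spread within each group was small beside the gap. The fold change was 3.54, or 1.82 on the log2 scale (SE 0.174, 95% interval 1.42 to 2.22, edgeR quasi-likelihood adjusted p = 0.000949). The level stayed low: at 1.00 ± 0.109 FPKM in the knockout and 0.280 ± 0.0257 FPKM in the wild type (SD, n = 3 each), Epha4 supplied 2.02% to 2.59% of the summed receptor FPKM in the knockout and 0.728% to 0.836% in the wild type. Epha4 lies on chromosome 1, 77343822 to 77491725 on the minus strand, in the table's coordinates (ENSMUSG00000026235), and the only gene it overlaps there, the microRNA gene Mir6352, had 0 reads.

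Epha2, the main receptor of ephrin-A1 in epithelial cells, changed less but from a high level. It was at 109, 103 and 101 CPM in knockout cells, against 76.4, 83.0 and 74.3 CPM in wild-type cells. The groups did not overlap. The fold change was 1.34, or 0.42 on the log2 scale (SE 0.0847, 95% interval 0.23 to 0.61, edgeR quasi-likelihood adjusted p = 0.0151). The call did not survive the loss of knockout library 1, knockout library 3 or wild-type library 3 (adjusted p in edgeR's quasi-likelihood test = 0.0752, 0.0592 and 0.0871), while the log2 fold change stayed between 0.39 and 0.47 when any 1 library was left out. Epha2 (ENSMUSG00000006445) lies on chromosome 4, 141028551 to 141056695 on the plus strand.

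Ephb2, a receptor of ephrin-B ligands known for positioning epithelial cells in the intestine, was lower in the knockout. It was at 31.2, 30.7 and 30.2 CPM in knockout cells, against 45.1, 58.2 and 53.7 CPM in wild-type cells. The knockout libraries were nearly level with each other, and wild-type library 1 was the lowest of its group without reaching them. The log2 fold change was -0.77 (SE 0.109, 95% interval -1.02 to -0.52, edgeR quasi-likelihood adjusted p = 0.00387), a 1.70-fold lower level. With any 1 library left out it lay between -0.85 and -0.68, and the adjusted p of the same edgeR test between 0.00290 and 0.0282. In the authors' deposited table the log2 fold change is 0.411 for Epha2, -0.709 for Ephb2 and 1.5 for Epha4. Each is smaller in size than the value found here, most clearly for Epha4 (1.82 here). The same holds for the low genes Efna3, deposited at -0.695 against -1.29 here, and Chn2, at 0.86 against 1.44. Ephb2 (ENSMUSG00000028664) lies on chromosome 4 as well, 136374850 to 136563299 on the minus strand.

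**Figure D2:**
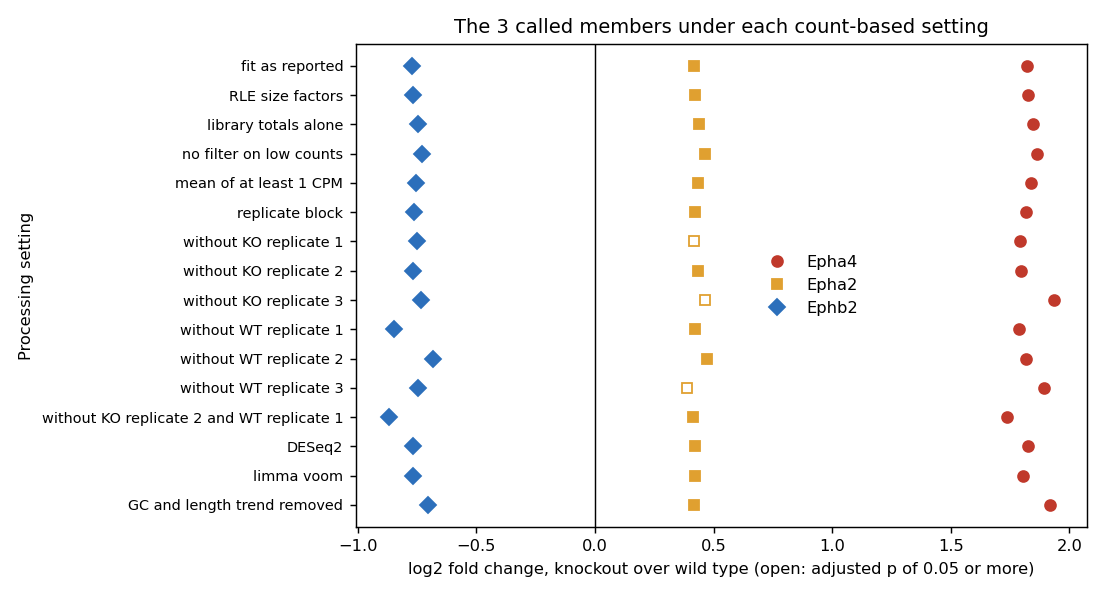
Log2 fold change, knockout over wild type, of Epha4 (circles), Epha2 (squares) and Ephb2 (diamonds) in the fit as reported and in 15 other settings on counts, filled where the adjusted p was under 0.05. Each gene keeps its direction in all of these settings, and the 3 open symbols are Epha2 without knockout library 1, knockout library 3 or wild-type library 3.

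The 250 bases before the RefSeq start of these 3 receptor genes (build GRCm38.p6) are shown because these are the members whose mRNA level changed. Capitals mark matches, on either strand, to the GC box (GGGCGG), the CCAAT box, the cyclic AMP response element (TGACGTCA), the E-box (CACGTG), the TATA box (TATAAA) or the interferon response core, a set chosen with the sequences in view. Each line runs 5′ to 3′ on the strand of the gene, with Epha4 at chr1:77515089-77515338 (minus), Epha2 at chr4:141300971-141301220 (plus) and Ephb2 at chr4:136836013-136836262 (minus).
Epha4: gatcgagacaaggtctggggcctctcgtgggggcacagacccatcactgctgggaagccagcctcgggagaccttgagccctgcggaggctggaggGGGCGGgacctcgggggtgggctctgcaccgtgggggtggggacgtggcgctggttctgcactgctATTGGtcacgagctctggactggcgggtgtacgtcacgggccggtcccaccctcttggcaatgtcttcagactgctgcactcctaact
Epha2: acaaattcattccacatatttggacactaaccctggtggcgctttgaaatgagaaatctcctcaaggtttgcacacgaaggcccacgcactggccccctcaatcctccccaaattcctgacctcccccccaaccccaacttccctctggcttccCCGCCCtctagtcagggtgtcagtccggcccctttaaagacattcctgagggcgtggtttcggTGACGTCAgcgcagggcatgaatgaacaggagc
Ephb2: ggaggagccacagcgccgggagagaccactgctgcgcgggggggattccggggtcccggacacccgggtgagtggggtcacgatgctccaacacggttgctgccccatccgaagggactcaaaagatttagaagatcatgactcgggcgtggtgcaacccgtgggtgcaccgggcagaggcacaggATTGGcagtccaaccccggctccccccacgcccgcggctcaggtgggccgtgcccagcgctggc

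The Epha4 window holds a GGGCGG 154 bases and an inverted CCAAT 88 bases before the start. The Epha2 window holds an inverted GGGCGG 96 bases and the palindrome TGACGTCA 33 bases before it. The Ephb2 window holds an inverted CCAAT 64 bases before it. Of the 32851 RefSeq windows of this length, 32.7% hold GGGCGG, 33.8% CCAAT, 1.55% TGACGTCA, 6.02% CACGTG, 12.4% TATAAA and 2.98% the interferon response core, and none of the last 3 is in these 3 windows. Of the 24 windows listed for 21 of the 22 family genes, only that of Epha2 holds TGACGTCA. CG dinucleotides number 14 in the Epha4 window, 9 in that of Epha2 and 20 in that of Ephb2, against a median of 6 over all windows. GC content is 66.0% for Epha4, 55.6% for Epha2 and 68.4% for Ephb2, against a median of 52.4%. Binding to these windows was not measured here, and a match of letters is not a site.

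The other 2 EphA receptors were close to the detection limit. Epha7, a receptor best known from the nervous system, had 18, 33 and 32 reads in knockout cells, against 17, 11 and 13 reads in wild-type cells. Knockout library 1 lay beside wild-type library 1 in CPM, 0.775 against 0.793, so the groups overlapped. The log2 fold change was 0.81 with a 95% interval from -0.07 to 1.70 (edgeR quasi-likelihood adjusted p = 0.195). Epha1 had 6, 7 and 13 reads in the knockout and 14, 4 and 3 reads in the wild type. Summed, these are 26 reads (exact 95% Poisson interval 17 to 38.1) and 21 reads (13.0 to 32.1), so a difference was not detectable at this depth. Part of the Epha1 locus is covered on the opposite strand by Zyx, with 13678 reads in the knockout and 11888 in the wild type. Whether counting used strand is not stated, so reads of the pair within the 1727 shared bases cannot be told apart.

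Ephb3 and Ephb4 showed no difference beyond the spread of their libraries. Ephb4, whose preferred ligand is ephrin-B2, was at 65.9, 56.1 and 67.4 CPM in knockout cells, against 55.0, 58.6 and 61.5 CPM in wild-type cells. The log2 fold change was 0.11 (95% interval -0.12 to 0.34, edgeR quasi-likelihood adjusted p = 0.478). Ephb3 was at 18.3, 14.0 and 19.2 CPM in knockout cells, against 17.3, 15.8 and 15.8 CPM in wild-type cells, a log2 fold change of 0.08 (95% interval -0.24 to 0.40, edgeR quasi-likelihood adjusted p = 0.740). In both genes knockout library 2 was the lowest of its group. Both passed when knockout library 2 and wild-type library 1 were left out together, with log2 fold changes of 0.15 for Ephb4 and 0.25 for Ephb3 (edgeR quasi-likelihood adjusted p = 0.0429 and 0.0381). In that setting 7556 of all 14825 tested genes passed, so a call there says little about these genes. The intervals with all 6 libraries leave out a fall of Ephb3 or Ephb4 as large as that of Ephb2.

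**Figure D3:**
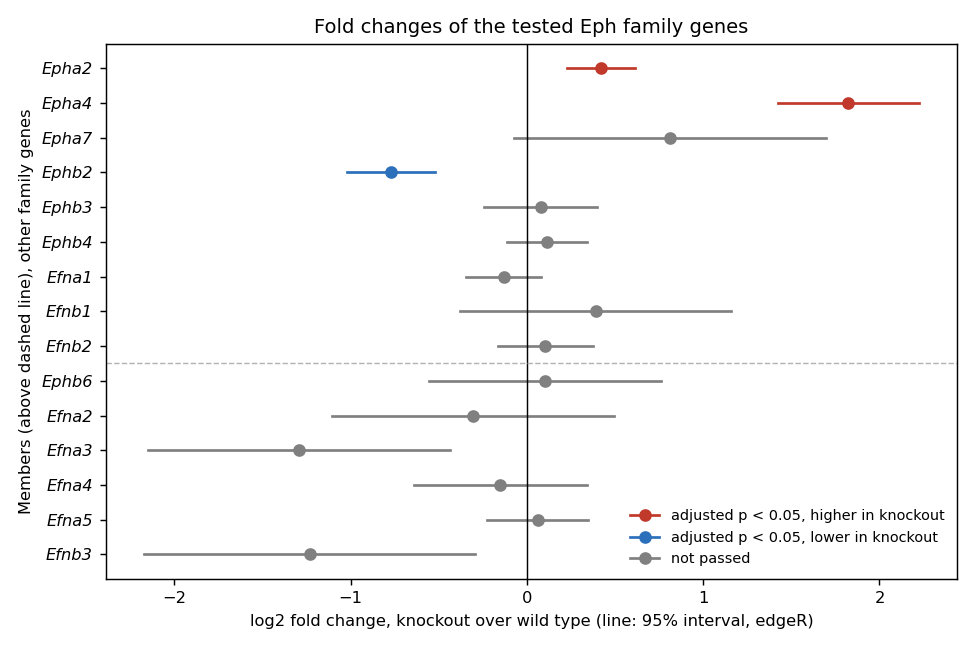
Log2 fold change, knockout over wild type, with its 95% interval from edgeR, for the 9 tested members (above the dashed line) and the 6 tested further family genes. Epha4 and Epha2 lie to the right of 0 and Ephb2 to the left, and the intervals of Efna3 and Efnb3 lie left of 0 although neither passed the adjusted threshold.

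The ligands among the 10 genes did not pass. Efna1, the ephrin-A ligand bound by Epha2, was at 23.9, 25.9 and 26.0 CPM in knockout cells, against 27.2, 27.4 and 28.5 CPM in wild-type cells. The groups did not overlap, but the log2 fold change was -0.13 with a 95% interval from -0.34 to 0.08 (edgeR quasi-likelihood adjusted p = 0.375). Efnb2, the transmembrane ligand of Ephb4 and Ephb2, was at 18.4, 17.2 and 21.3 CPM in knockout cells, against 18.7, 16.9 and 17.4 CPM in wild-type cells. Its log2 fold change was 0.10 (95% interval -0.17 to 0.37, edgeR quasi-likelihood adjusted p = 0.589). Efnb1, another transmembrane ligand, was at 2.93, 1.82 and 3.94 CPM in knockout cells, against 2.01, 2.84 and 1.75 CPM in wild-type cells. The Efnb1 libraries interleaved, and the 95% interval of its log2 fold change of 0.39 ran from -0.38 to 1.16 (edgeR quasi-likelihood adjusted p = 0.465).

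Of the 12 family genes outside these 10, 6 were tested and 0 passed in edgeR's quasi-likelihood test, against 15.2% of all tested genes. At an unadjusted p under 0.05 were 2 of the 6 (Efna3 and Efnb3), against 4607 of all 14842 tested genes. The median log2 fold change of the 6 was -0.23. Efna5, a lipid-anchored ligand, was the most abundant of them at 7.21 ± 1.13 FPKM in the knockout and 6.87 ± 0.418 FPKM in the wild type (SD, n = 3 each), above every receptor but Epha2 and Ephb4. Its log2 fold change was 0.06 (edgeR quasi-likelihood adjusted p = 0.774). Efna4, at -0.15, Efna2, at -0.31, and Ephb6, a receptor without kinase activity, at 0.10, had overlapping groups too.

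Efna3 and Efnb3 lay close to the threshold. Efna3, a lipid-anchored ligand, had 18, 13 and 27 reads in knockout cells, against 36, 40 and 54 reads in wild-type cells. Every knockout library was below every wild-type library in CPM. The log2 fold change was -1.29 (95% interval -2.15 to -0.43, edgeR quasi-likelihood adjusted p = 0.0521), and Efna3 passed in DESeq2 (adjusted p = 0.0272) and limma voom (adjusted p = 0.0441). It did not pass with any 1 library left out (edgeR quasi-likelihood adjusted p between 0.0702 and 0.179). A long noncoding gene on the opposite strand, Gm15998, overlaps 3469 bases of Efna3 and had 86 reads in the knockout and 184 reads in the wild type. Reads of the pair within the overlap cannot be told apart without strand. Efnb3, a transmembrane ligand, had 28, 28 and 41 reads in knockout cells, against 97, 54 and 48 reads in wild-type cells. The groups did not overlap in CPM, and wild-type library 1 was far above the other 2 of its group. The log2 fold change was -1.23 with all libraries and -0.69 when wild-type library 1 was dropped (edgeR quasi-likelihood adjusted p = 0.0786 and 0.157), and DESeq2 called it (adjusted p = 0.0317). The authors' deposited table gives adjusted p-values of 0.0516 for Efna3 and 0.0423 for Efnb3.

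The remaining 6 family genes were receptors at or near 0. Epha3, Epha6 and Ephb1 had 0 reads in all 6 libraries, which allows a level of up to 0.0190 CPM over the 157722497 reads together. Epha5 had 11 reads in the knockout and 1 in the wild type, Epha8 had 1 in the knockout and 5 in the wild type, and Epha10 had 1 in the knockout and 3 in the wild type. Epha5 overlaps Hmgn2-ps1, a pseudogene on the opposite strand with 3931 reads in the knockout and 3393 in the wild type. Epha5 was seen in all 3 knockout libraries, with 3, 5 and 3 reads, and in 1 wild-type library, and with no filter on low counts it did not pass (edgeR quasi-likelihood adjusted p = 0.350). Intervals and limits from reads cover counting error only, since the reads carry no molecular identifiers.

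**Figure D4:**
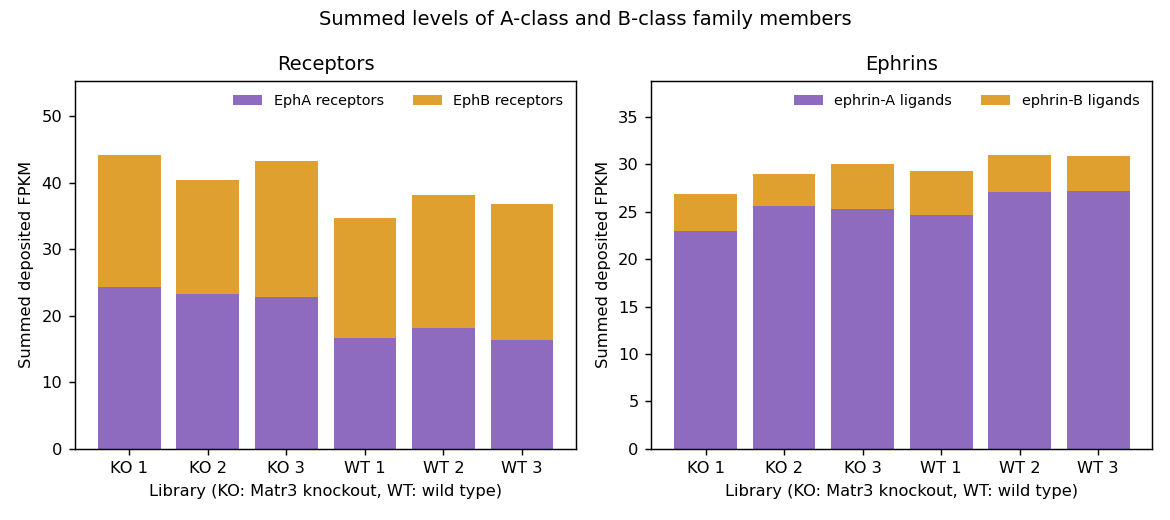
Summed deposited FPKM of all A-class (purple) and B-class (orange) receptors (left) and ephrins (right) in each library, with the 3 Matr3 knockout libraries left of the 3 wild-type libraries. The EphA part of the receptor bars is 22.8 to 24.3 FPKM in the knockout and 16.3 to 18.1 FPKM in the wild type, while the other parts overlap between the groups.

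Summed over the family, the balance between receptor classes differed between the groups. EphA receptors summed to 24.3, 23.3 and 22.8 FPKM in knockout cells, against 16.6, 18.1 and 16.3 FPKM in wild-type cells, nearly all of it Epha2. EphB receptors summed to 19.9, 17.1 and 20.5 FPKM in knockout cells, against 18.1, 20.1 and 20.5 FPKM in wild-type cells. The EphA sum was 1.11 to 1.36 times the EphB sum in the knockout and 0.796 to 0.915 times in the wild type. Ratios between single receptors were formed only among Epha4, Epha2 and Ephb2, the called members, so their separation restates those calls. There was 9.01 to 9.39 times as much Epha2 as Ephb2 per length in the knockout and 3.73 to 4.57 times in the wild type. The Ephb2 level was 2.28 to 2.73 times that of Epha4 in the knockout and 13.7 to 16.6 times in the wild type. Ephb2 made up 5.53% to 6.06% of the receptor sum in the knockout and 10.1% to 12.1% in the wild type. Ephrin-A ligands summed to 23.0 to 25.6 FPKM in the knockout and 24.6 to 27.2 FPKM in the wild type. Ephrin-B ligands summed to 3.34 to 4.70 FPKM in the knockout and 3.62 to 4.64 FPKM in the wild type. These sums and ratios are descriptions, with no test.

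Genes with the most similar profile over the 6 libraries were named for the members with the largest called rise and the only called fall, by Pearson's r of log2 CPM among 9764 other protein-coding genes of at least 5 CPM. For Epha4 they were Ptgr1 (r = 0.999), Ptpdc1 (0.998) and Gls2 (0.997), with log2 fold changes of 0.76, 0.63 and 0.85. For Ephb2 they were Gart, E2f4 and Prkar2a (0.998 each), with log2 fold changes of -0.54, -0.34 and -0.46. The 6 libraries form 2 groups, so these r values are descriptions with no test.

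Among 44 genes listed as partners of Eph and ephrin signalling, 41 were tested, of which 3 rose, 2 fell and 36 did not pass. The share called was 12.2%, against 15.2% over all tested genes (edgeR quasi-likelihood test). Their median log2 fold change was -0.07. Of 11 regulators of small GTPases 2 rose and 0 fell (18.2% called), with a median of -0.18. At an unadjusted p under 0.05 in the same test there were 3 of them, Vav2 being lower at -0.36. Chn2, which encodes beta-chimaerin, a GTPase-activating protein, was at 2.50, 1.56 and 2.22 CPM in knockout cells, against 0.793, 0.823 and 0.685 CPM in wild-type cells, with a log2 fold change of 1.44 (edgeR quasi-likelihood adjusted p = 0.0183). Vav3, a guanine nucleotide exchange factor, was at 35.8, 46.7 and 38.7 CPM in knockout cells, against 29.0, 30.1 and 31.2 CPM in wild-type cells, with a log2 fold change of 0.42 (edgeR quasi-likelihood adjusted p = 0.0439). In both genes every knockout library was above every wild-type library. Chn2 was no longer called when 1 of knockout libraries 1 and 3 and wild-type libraries 2 and 3 was dropped (edgeR adjusted p between 0.0618 and 0.0850). Vav3 was no longer called after dropping any library other than knockout library 2 (edgeR adjusted p between 0.0543 and 0.127). Nor was Vav3 called by limma on log2(FPKM + 1) or log2(FPKM + 0.1), with adjusted p of 0.0763 and 0.0727.

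Of 13 tested adaptors and scaffolds 2 fell and 0 rose (15.4% called, against 15.2% over all tested genes), with a median of -0.04. Grb10, an adaptor that binds activated receptor tyrosine kinases and restrains insulin signalling, had 1, 5 and 0 reads in knockout cells, against 4090, 6059 and 5984 reads in wild-type cells (edgeR quasi-likelihood adjusted p = 3.54e-06). Anks1b, whose protein is related to the Eph-binding scaffold Anks1, was at 3.49, 1.98 and 3.45 CPM in knockout cells, against 12.8, 9.17 and 9.25 CPM in wild-type cells, a log2 fold change of -1.81 (edgeR quasi-likelihood adjusted p = 0.00359). Anks1 itself had a log2 fold change of -0.03, and the adaptors Nck1 (-0.03), Nck2 (-0.04), Crk (0.04) and Crkl (-0.04) did not pass either. Dvl2, at 0.30, did not pass (edgeR quasi-likelihood unadjusted p = 0.0433, adjusted p = 0.146). It was at 94.3, 69.0 and 93.9 CPM in knockout cells, against 70.6, 69.1 and 68.8 CPM in wild-type cells. Of 11 kinases, phosphatases and the ubiquitin ligase Cbl, 1 rose and 0 fell (9.09% called), with a median of -0.09. This was Fyn, a Src-family kinase that relays Eph and ephrin signals, at 73.0, 69.7 and 74.4 CPM in knockout cells, against 46.0, 55.8 and 51.7 CPM in wild-type cells. The log2 fold change was 0.50 (edgeR quasi-likelihood adjusted p = 0.0123), and the call was lost after dropping knockout library 1, knockout library 3 or wild-type library 3 (edgeR adjusted p = 0.0542, 0.0587 and 0.0609). The Src-family kinases Src (0.25), Lyn (0.21) and Yes1 (-0.05) did not pass. Nor did the phosphatase Ptpn13, at -0.32 (edgeR quasi-likelihood unadjusted p = 0.0112, adjusted p = 0.0623).

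Of 6 genes of proteases or protease complexes that cleave Eph receptors or ephrins 0 passed in edgeR's quasi-likelihood test, against 15.2% of all tested genes. The median of the 6 was 0.03, with 0 at an unadjusted p under 0.05. Adam10, which sheds ephrins, had a log2 fold change of 0.06 (95% interval -0.18 to 0.30), and Mmp14, which cleaves Epha2, one of 0.06 (95% interval -0.22 to 0.34).

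**Figure D5:**
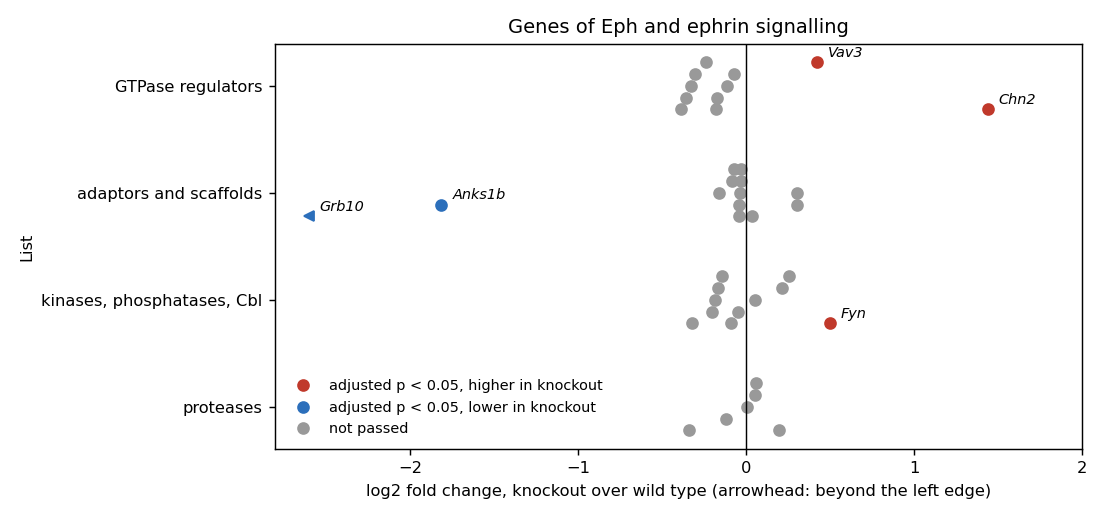
Log2 fold change, knockout over wild type, of the 41 tested genes of Eph and ephrin signalling in 4 lists, red where higher and blue where lower in the knockout at an adjusted p under 0.05. Only Chn2, Vav3, Fyn, Anks1b and Grb10 are coloured, and Grb10 lies beyond the left edge.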

How the data were processed

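Bulk RNA-seq libraries of Matr3 knockout and wild-type Hepa1-6 cells (3 each) were grouped by their titles. Per the labels' protocols, column-purified RNA went into a SMARTER mRNA-Seq preparation. The sources used here do not give strandedness, counter, annotation, aligner or the authors' test. The authors deposited 1 table of raw counts per gene and FPKM, with their own mean signal per group, log2 fold changes and p-values, per the file headers. The submitters' processing notes name GRCm38 and mm10, but 1 of 22 family genes has the coordinates of the GRCm38 annotation GENCODE M21, so the build of the table's coordinates, printed as deposited, is unsettled. Promoter windows are from RefSeq on GRCm38.p6, in that build's own coordinates.

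Counts were tested across all genes in R 4.3.3 with edgeR 4.0.16 (filterByExpr, TMM scaling, quasi-likelihood F test, no covariate), with Benjamini-Hochberg adjusted p under 0.05 as the threshold. CPM is per TMM-scaled library size, and intervals are 95% from the F statistic. Of these steps, the edgeR fit alone was tested on simulated counts, which held no library set apart by GC content or by genes covered. Alternatives, with DESeq2 1.42.0 and limma 3.58.1 among them, are given at the end. The members, lists and rules were chosen with earlier results of these data known. Named were all family genes, Matr3, up to 4 called genes per signalling list with the smallest p, and the 3 genes most like the called members with the largest rise and fall. Further genes named were picked once their values had been seen. The results of 1 signalling list are not reported here, but the counts over the lists under each alternative include its genes.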

Additional observations from a re-analysis of the deposited data

How the results depend on the processing

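Epha4 and Ephb2 kept their direction and their call in 18 of 18 alternative settings, and Epha2 kept its direction in 18 and its call in 14. Of the 10 members, 3 passed as reported, 2 to 3 with any 1 library left out, and 5 without knockout replicate 2 and wild-type replicate 1 together, where Ephb3 and Ephb4 joined. The libraries kept in that setting are the closest pair of each group, and the knockout pair shares a positive GC correlation. Over all genes 2252 of 14842 tested passed, with 807 to 4295 when any 1 library was left out and 721 at an adjusted p under 0.01. The count over all genes was 7556 of 14825 without those 2 libraries. It was 2912 of 14842 in DESeq2 and 2670 of 14842 after removal of the trend with GC and length. Of the 54 tested genes of the other family genes and signalling lists together 5 passed, with 2 to 14 when any 1 library was left out. Of the same 54 genes, 27 passed without those 2 libraries, 9 in DESeq2, 9 after removal of the trend with GC and length and 2 at an adjusted p under 0.01. Values of 3 tested genes that did not pass changed sign, as did Epha1, which was not tested as reported. With any 1 library left out, the log2 fold change of Ephb6 ran from -0.0742 (without knockout replicate 3) to 0.3179, that of Efna4 from -0.2766 to 0.0113 (without wild-type replicate 2) and that of Efna5 from -0.0658 (without knockout replicate 2) to 0.1663. Efna5 was at -0.11 without knockout replicate 2 and wild-type replicate 1. Epha1 was at 0.23 and 0.30 without knockout replicate 1 or 2 and at -0.24 and -0.31 without wild-type replicate 2 or 3. The cause was not tested. Efna3 passed in 8 of 18 settings and Efnb3 in 3. On the log2(FPKM + 1) scale Epha4 was at 0.64, since the pseudocount of 1 shrinks low genes. Deviations of same-numbered libraries from their group means correlated at r = 0.159, -0.031 and -0.179. With 3 libraries a group, these values cannot tell whether the numbers are pairs. With the replicate block 1599 genes passed, 3 of them members, with Epha4 at 1.82, and Vav3 was no longer called (edgeR adjusted p = 0.0648). Counts of 11 to 97 reads a library limit what can be said of Epha7, Efna3 and Efnb3.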
